A study of Mus musculus with 7 samples.

Results

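The serine and folate one-carbon enzymes are 10 genes of one metabolic route, and they were followed here in quadriceps femoris muscle of 3 mutant Twinkle mice and 4 wild-type mice. Every probe set annotated to 1 symbol among them was used, older aliases included. This gave 26 of the 34945 probe sets with 1 symbol, or 10 of 18193 genes. The 5 mitochondrial folate enzymes (Mthfd2, Mthfd2l, Mthfd1l, Shmt2 and Aldh1l2) had 12 probe sets, the 2 cytosolic ones (Mthfd1 and Shmt1) had 7, and the 3 enzymes of serine synthesis (Phgdh, Psat1 and Psph) had 7. A further 2 probe sets that also carry another gene's symbol were left out.

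The mutant mice overexpress a mutant form of Twinkle, the helicase of mitochondrial DNA, and serve as a model of progressive external ophthalmoplegia. Mutant replicates 1 to 3 were aged 24, 24 and 21 months, and wild-type replicates 1 to 4 were aged 26, 24, 21 and 23 months. Each sample was 1 array of labelled RNA from 1 biological replicate, in the words of the titles. The promoter of the transgene, the strain and the sex are not given in the sources used here. The free-text descriptions of the samples name cerebellum, while the titles, source and tissue type are those of muscle. The brightest recovered range held all 10 muscle fibre markers, with levels between 8 and 16 on the log2 scale, and 0 of 10 cerebellum markers.

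Serine is built from an intermediate of glycolysis by Phgdh, Psat1 and Psph in turn. Serine hydroxymethyltransferase then splits it into glycine and a one-carbon unit carried on folate, Shmt2 in the mitochondrion and Shmt1 in the cytosol. In the mitochondrion Mthfd2 or Mthfd2l oxidises this unit and Mthfd1l releases it as formate, which leaves for the cytosol, where the multifunctional Mthfd1 uses it for purines, thymidylate and methyl groups. Aldh1l2 oxidises mitochondrial formyl folate to carbon dioxide. Mthfd2 is best known from embryos and dividing cells, and Mthfd2, Psat1 and Phgdh are known targets of ATF4, the transcription factor of the integrated stress response.

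Mthfd2 and Psat1 are the members with the largest differences between the groups, so the 250 bases before their transcription starts are shown, with those of Mthfd1, the cytosolic counterpart of Mthfd2. The sequences are those of RefSeq for the assembly GRCm38.p6, read 5′ to 3′ on the strand of the gene. Capitals mark CCAAT boxes, on either strand. Mthfd2 lies at chr6:83317605-83317854 (minus strand), Psat1 at chr19:15925060-15925309 (minus strand) and Mthfd1 at chr12:76254982-76255231 (plus strand).
Mthfd2: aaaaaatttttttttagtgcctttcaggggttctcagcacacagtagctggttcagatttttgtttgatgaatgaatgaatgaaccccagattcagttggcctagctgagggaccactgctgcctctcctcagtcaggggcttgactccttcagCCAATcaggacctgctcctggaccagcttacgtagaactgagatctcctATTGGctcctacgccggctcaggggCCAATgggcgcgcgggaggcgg
Psat1: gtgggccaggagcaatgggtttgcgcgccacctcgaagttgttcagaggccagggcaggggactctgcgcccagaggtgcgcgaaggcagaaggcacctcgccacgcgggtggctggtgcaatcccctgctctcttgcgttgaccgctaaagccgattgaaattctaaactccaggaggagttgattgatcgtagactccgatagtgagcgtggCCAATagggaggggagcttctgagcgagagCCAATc
Mthfd1: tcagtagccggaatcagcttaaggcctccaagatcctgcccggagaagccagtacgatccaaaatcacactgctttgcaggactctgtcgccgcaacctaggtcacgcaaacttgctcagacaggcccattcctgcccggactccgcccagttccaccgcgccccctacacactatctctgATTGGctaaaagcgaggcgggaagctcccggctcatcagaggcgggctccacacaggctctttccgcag

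The table of promoters held 10 windows for 9 of the 10 genes, each 300 bases long, from 250 before to 50 after a start. The letters TGATGNAA of the C/EBP-ATF element, searched on both strands, were in none of them and in 3.97% of all 32851 promoters. The MYC E-box CACGTG and the cyclic AMP element TGACGTCA were also in none, against 7.15% and 1.79% of all promoters. The antioxidant response element TGACNNNGC was in the windows of Phgdh and Psph and in 12.4% of all promoters. CCAAT, in which ATTGG is the other strand, was in the windows of 6 genes and in 37.4% of all promoters. Mthfd2 held 3 such matches, starting 96, 47 and 22 bases before the start, and 3.37% of all promoters held 3 or more. Psat1 also held 3, at 36 and 6 bases before the start and 23 after it, while its second annotated start had none. Phgdh and Psph held 2 each, Mthfd1 and Shmt1 held 1, and Mthfd2l, Mthfd1l and Shmt2 none. Neither antioxidant response match overlapped a CCAAT box. These are letter matches in a short window, and no binding was measured.

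The deposited table is on the log2 scale and centred, with each probe set set against its own median over the 7 arrays, so 0 is the middle array and no absolute level is held. A level range was recovered from the spacing of the numbers. It placed 24 member probe sets between 4 and 8 and 2 between 8 and 16, the latter for Mthfd1l and Mthfd1. Of the 182 member values, 44 were exactly 0. Each probe set has at least 1 array at its median, and over 1 array can share it. In whole muscle, fewer cells of a type and less RNA per cell cannot be told apart.

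With limma and Benjamini-Hochberg adjustment over all 18193 genes, 0 members had an adjusted p under 0.05, and the smallest adjusted p of any gene was 1.00. The share of genes called was 0.0% in either direction. At an unadjusted p under 0.05 there were 2 members, Mthfd2 and Psat1, both higher in mutant muscle. Psat1 was no longer at that level without mutant replicate 2 and wild-type replicates 1 and 4, nor without mutant replicate 1 and wild-type replicate 3. Among all genes 0.742% were higher and 0.693% lower at that level. The mutant arrays were all higher than the wild-type arrays for 1 member, Mthfd2, against 0.879% of all genes, and no member lay wholly below, against 1.19%. Of the 10 members, 2 (Mthfd2 and Psat1) differed by 0.5 or more upward on the log2 scale, against 0.522% of all genes. Of the 10, 5 had a positive and 5 a negative difference, against 46.5% of all genes with a positive one. The median difference was 0.0012 over the members and -0.01 over all genes on the log2 scale.

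**Figure D1:**
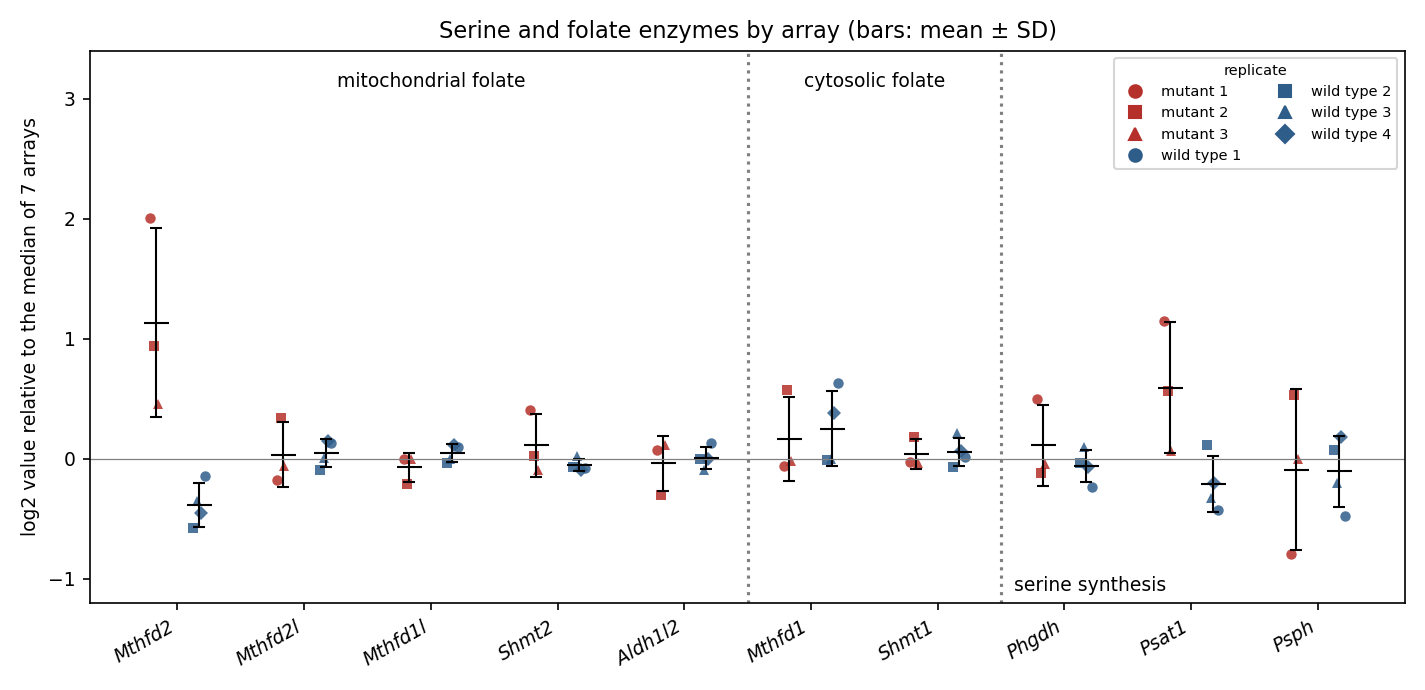
Log2 value of each enzyme (vertical axis), by gene (horizontal axis). It is the mean over probe sets, each relative to its own median over 7 arrays. Mutant arrays are in red and wild-type arrays in blue, with a symbol per replicate and bars for the mean ± SD. The 3 mutant points of Mthfd2 (0.46 to 2.00) lie above its 4 wild-type points (-0.58 to -0.14), and in the other 9 genes the groups overlap.

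Mthfd2, the mitochondrial methylenetetrahydrofolate dehydrogenase and cyclohydrolase, measured 2.00, 0.94 and 0.46 in mutant replicates 1, 2 and 3. In wild-type replicates 1 to 4 it measured -0.14, -0.58, -0.35 and -0.46. The lowest mutant array was thus above the highest wild-type array, and the mutant arrays were spread more widely than the wild-type arrays. The means were 1.13 ± 0.79 (SD, n = 3) and -0.38 ± 0.18 (SD, n = 4). The log2 difference was 1.52 ± 0.33 (SE), or 2.86-fold with a 95% interval of 1.67 to 4.92 (limma, adjusted p = 1.00). This was the 8th smallest p-value and the 3rd largest positive difference among the 18193 genes. The limma interval takes the spread as equal in both groups, so its lower end is not a firm bound for Mthfd2.

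Both probe sets of Mthfd2 separated the groups. The first differed by 1.30 ± 0.38 (SE), with 0.10 to 1.45 in mutant and -1.16 to 0.00 in wild-type arrays. The other differed by 1.73 ± 0.39 (SE), with 0.82 to 2.56 in mutant and -0.51 to 0.00 in wild-type arrays. In both, mutant replicate 1 was the highest array and mutant replicate 3 the lowest of the mutant arrays. Without mutant replicate 1 the difference of Mthfd2 was 1.08 (limma, adjusted p = 0.962). Leaving out any 1 array gave 1.08 to 1.85.

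Mutant replicate 1 stood apart in a control. The probe sets for 18S ribosomal RNA averaged 3.19 on the log2 scale there, against -0.77 to 0.56 in the other 6 arrays. That array was the highest of 7 for 4 members (Mthfd2, Shmt2, Phgdh and Psat1) and the lowest for 3 (Mthfd2l, Psph and, by a narrow margin, Mthfd1). Mutant replicate 2 and wild-type replicates 1 and 4 also resembled each other: over probe sets at 4 or above, their correlations ran from 0.32 to 0.45, and from -0.65 to -0.29 with the other 4 arrays. Within these 3 arrays the difference of Mthfd2 was 1.24, and within the other 4 it was 1.70. Wild-type replicate 3 had a Gapdh 5 prime minus 3 prime value of -0.55, against -0.040 to 0.094 in the others. Its actin 5 prime minus 3 prime value, 0.119, lay inside the range of the others (-0.136 to 0.124). Without wild-type replicate 3 the difference of Mthfd2 was 1.53.

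Mthfd2l, the second mitochondrial dehydrogenase, measured -0.18, 0.34 and -0.06 in the mutant arrays. In the wild-type arrays it measured 0.13, -0.09, 0.00 and 0.15. The groups overlapped fully, with a log2 difference of -0.01 ± 0.14 (SE), or 0.992-fold with a 95% interval of 0.789 to 1.25 (limma adjusted p = 1.00). Its 4 probe sets differed by -0.13 to 0.14, and 2 of them were positive. The one at -0.13 is of the type marked x, whose probes can match other transcripts. The highest 3 of its 7 arrays were mutant replicate 2 and wild-type replicates 1 and 4, the arrays that resembled each other.

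Mthfd1l, which releases formate in the mitochondrion, had 1 probe set. It measured 0.00, -0.21 and 0.00 in mutant and 0.10, -0.03, 0.00 and 0.12 in wild-type arrays. The difference was -0.12 ± 0.09 (SE), or 0.923-fold with an interval of 0.795 to 1.07. Aldh1l2, also with 1 probe set, measured 0.07, -0.30 and 0.12 in mutant and 0.13, 0.00, -0.09 and 0.00 in wild-type arrays. Its difference was -0.05 ± 0.12 (SE), with a fold interval of 0.794 to 1.18. For both genes the upper end of the interval lay below the 1.67-fold lower end of Mthfd2. That lower end takes the spread as equal in both groups, while the Mthfd2 SD was 0.79 in mutant and 0.18 in wild-type arrays. It is thus not a firm bound that sets Mthfd2 apart. In size the difference of Mthfd1l was just under the mutant SD (0.121) and above the wild-type SD (0.073). That of Aldh1l2 was under both SDs (0.23 and 0.09).

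Shmt2, the mitochondrial serine hydroxymethyltransferase, measured 0.41, 0.02 and -0.10 in mutant and -0.08, -0.07, 0.03 and -0.09 in wild-type arrays. Only mutant replicate 1 stood outside the wild-type range on the high side. The log2 difference was 0.16 ± 0.13 (SE), or 1.12-fold with an interval of 0.909 to 1.38 (limma, adjusted p = 1.00). Without mutant replicate 1 it was 0.015. Its 4 probe sets differed by -0.05 to 0.40, 3 of them upward, and 3 of the 4 are of the type marked x, whose probes can match other transcripts.

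**Figure D2:**
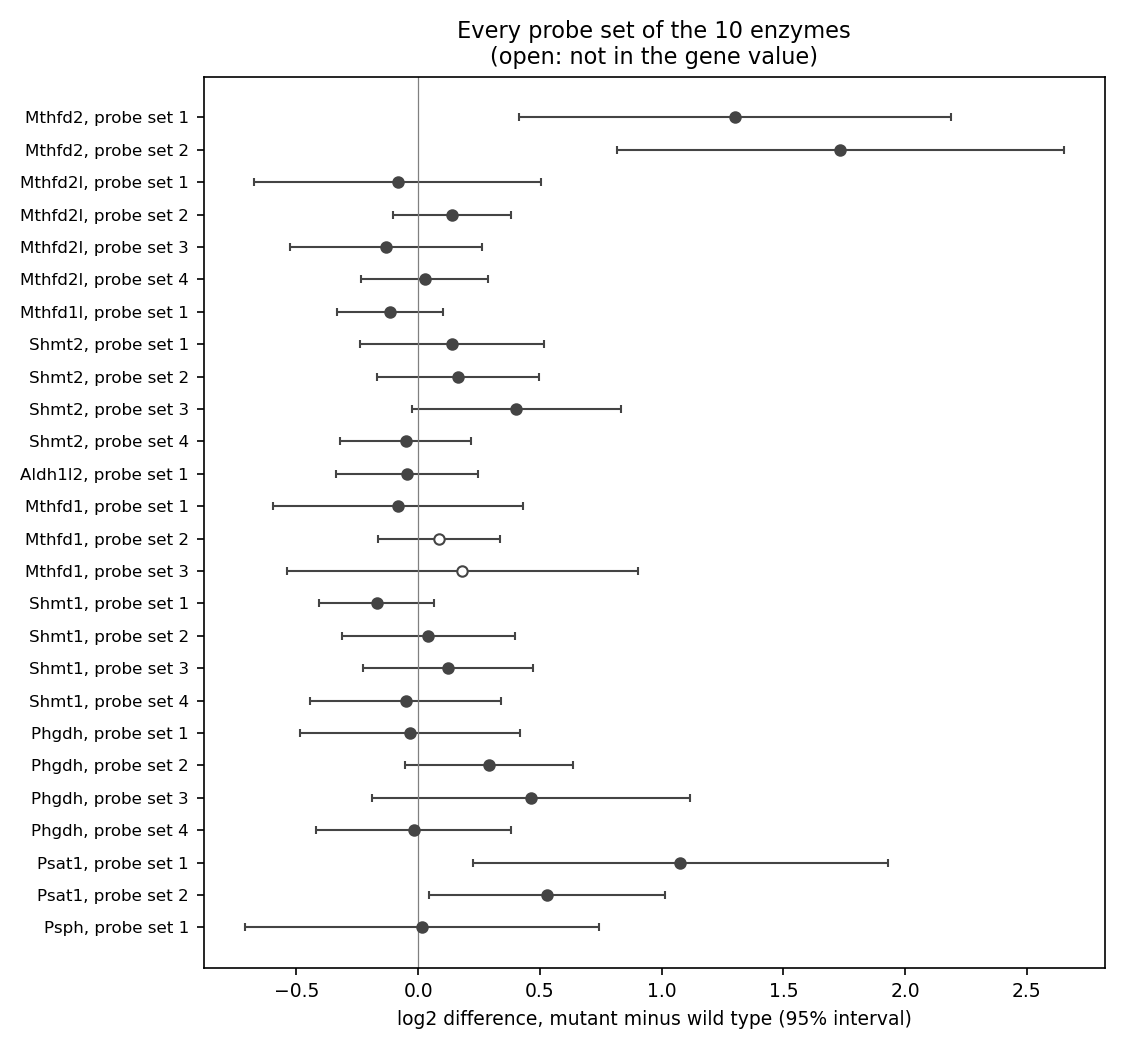
Log2 difference, mutant minus wild type, of each of the 26 probe sets (horizontal axis, points, with 95% intervals from limma), grouped by gene (vertical axis); open points are probe sets outside the gene value. The intervals of both Mthfd2 and both Psat1 probe sets lie above 0, and all others include 0.

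The cytosolic enzymes did not separate the groups. Mthfd1, the cytosolic multifunctional enzyme, measured -0.06, 0.57 and -0.02 in mutant and 0.63, -0.01, 0.00 and 0.38 in wild-type arrays. Its 3 highest values were those of mutant replicate 2 and wild-type replicates 1 and 4. The difference was -0.08 ± 0.22 (SE), or 0.944-fold with an interval of 0.663 to 1.34. The gene value rests on the 1 probe set in the brightest range. The other 2 probe sets differed by 0.08 and 0.18, so the sign depends on the probe set. The one at 0.18 is of the x type, so its signal may include other transcripts.

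Shmt1, the cytosolic hydroxymethyltransferase, measured -0.03, 0.18 and -0.03 in mutant and 0.01, -0.07, 0.21 and 0.06 in wild-type arrays. The groups overlapped, with a difference of -0.01 ± 0.10 (SE), or 0.990-fold with an interval of 0.838 to 1.17. Its 4 probe sets differed by -0.17 to 0.12, and 2 of them were positive.

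Of the serine synthesis enzymes, Psat1 measured higher in mutant muscle, while Phgdh and Psph did not separate the groups. Psat1, the phosphoserine aminotransferase, measured 1.15, 0.57 and 0.06 in mutant replicates 1, 2 and 3. In wild-type replicates 1 to 4 it measured -0.43, 0.11, -0.32 and -0.20. Mutant replicate 3 lay just below wild-type replicate 2, and the other 2 mutant arrays lay above every wild-type array. The means were 0.59 ± 0.54 (SD, n = 3) and -0.21 ± 0.23 (SD, n = 4). The log2 difference was 0.80 ± 0.25 (SE), or 1.74-fold with an interval of 1.16 to 2.63 (limma, adjusted p = 1.00). This was the 43rd smallest p-value and the 28th largest positive difference of all genes.

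The 2 probe sets of Psat1 gave differences of 1.08 ± 0.36 and 0.53 ± 0.21 (SE). In the first, the mutant arrays (0.13 to 1.62) were all higher than the wild-type arrays (-0.70 to 0.00). In the second, mutant replicate 3 at 0.00 lay below wild-type replicate 2 at 0.23. Without mutant replicate 1, the array with high 18S signal, the difference of the gene was 0.53 (limma, adjusted p = 0.962). It was 0.88 within the 3 arrays that resembled each other and 0.71 within the other 4.

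Phgdh, the first enzyme of serine synthesis, measured 0.50, -0.11 and -0.05 in mutant and -0.23, -0.04, 0.10 and -0.07 in wild-type arrays. Mutant replicate 1 was high and the other 2 mutant arrays lay inside the wild-type range. The difference was 0.18 ± 0.17 (SE), or 1.13-fold with an interval of 0.864 to 1.48, and -0.019 without mutant replicate 1. All 4 of its probe sets are of the x type, so its signal may include other transcripts, and their differences ran from -0.03 to 0.46, with 2 above 0. The 3 lowest arrays for Phgdh were mutant replicate 2 and wild-type replicates 1 and 4. Psph, the phosphatase that completes serine, had 1 probe set and the widest spread of the members relative to its difference. It measured -0.80, 0.53 and 0.00 in mutant and -0.47, 0.07, -0.20 and 0.18 in wild-type arrays. The difference was 0.01 ± 0.31 (SE), with a fold interval of 0.612 to 1.67, which still includes the lower end of the interval of Mthfd2.

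At the level of single probe sets, 4 of the 26 had an unadjusted limma p under 0.05, the 2 of Mthfd2 and the 2 of Psat1. Among all probe sets 1.79% did in either direction and 1.2% with mutant higher. The groups were separate with mutant higher in 3 of the 26, against 1.1% of all probe sets, and below in 0, against 0.941%. In all, 16 of the 26 probe sets had a positive difference, against 48.3% of all probe sets.

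The comparison of compartments turned on Mthfd2. The mean of the 5 mitochondrial folate enzymes was 0.46, 0.16 and 0.09 in mutant and 0.03, -0.15, -0.08 and -0.06 in wild-type arrays, a difference of 0.30 ± 0.12 (SE). Without mutant replicate 1, the array with high 18S signal, it was 0.19. Only 2 of the 5 genes were higher in mutant muscle, and the median over the 5 genes was -0.01. Without Mthfd2 the mean of the other 4 differed by -0.0026 ± 0.04 (SE). The cytosolic pair differed by -0.05 ± 0.16 (SE), with no stable sign: the value was 0.023 without mutant replicate 1, 0.016 without mutant replicate 3 and 0.0079 without wild-type replicate 1. The mitochondrial mean minus the cytosolic mean differed by 0.35 ± 0.21 (SE) between the groups, by 0.07 within the 3 arrays that resembled each other and by 0.46 within the other 4. It was 0.17 without mutant replicate 1 and 0.52 without mutant replicate 2. The cytosolic mean was 0.31 higher in those 3 arrays than in the other 4, whichever the genotype.

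The 3 serine synthesis enzymes averaged 0.28, 0.33 and 0.01 in mutant and -0.38, 0.05, -0.14 and -0.03 in wild-type arrays. The difference was 0.33 ± 0.14 (SE), and the groups overlapped. It was 0.53 within the 3 arrays that resembled each other and 0.19 within the other 4. Without Psat1 it was 0.10 ± 0.14. No p-value is given for these means, since the members were chosen with earlier results known.

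Enzyme pairs were compared within each array, which sets a mitochondrial enzyme against its counterpart and cancels the scaling of the array. An exact two-sided permutation test over the 35 splits of 7 arrays was used, whose smallest possible p is 0.0286, with adjustment over the 5 pairs. Mthfd2 minus Mthfd1 was 2.06, 0.37 and 0.48 in mutant and -0.77, -0.57, -0.35 and -0.83 in wild-type arrays. The groups did not overlap, and the difference was 1.60 ± 0.56 (SE; exact permutation p = 0.0286, adjusted p = 0.0714, n = 3 and 4). Mthfd2 minus Mthfd2l, both mitochondrial, differed by 1.53 ± 0.55 (exact permutation p = 0.0286, adjusted p = 0.0714). Both pairs reach the smallest p these arrays allow and neither passes after adjustment. With adjustment over 5 pairs they could pass only if another pair also reached that smallest p. Not passing is thus set by the number of arrays and pairs, and decides nothing about Mthfd2. Both also contain Mthfd2, whose difference was known when the pairs were chosen.

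The pairs without Mthfd2 overlapped between the groups. Shmt2 minus Shmt1 differed by 0.18 ± 0.19 (exact permutation p = 0.400, adjusted p = 0.667). Mthfd2l minus Mthfd1 differed by 0.07 ± 0.12 (exact permutation p = 0.714, adjusted p = 0.893), and Mthfd1l minus Mthfd1 by -0.03 ± 0.30 (exact permutation p = 1.00). In the last pair mutant replicate 2 was the lowest array at -0.78.

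**Figure D3:**
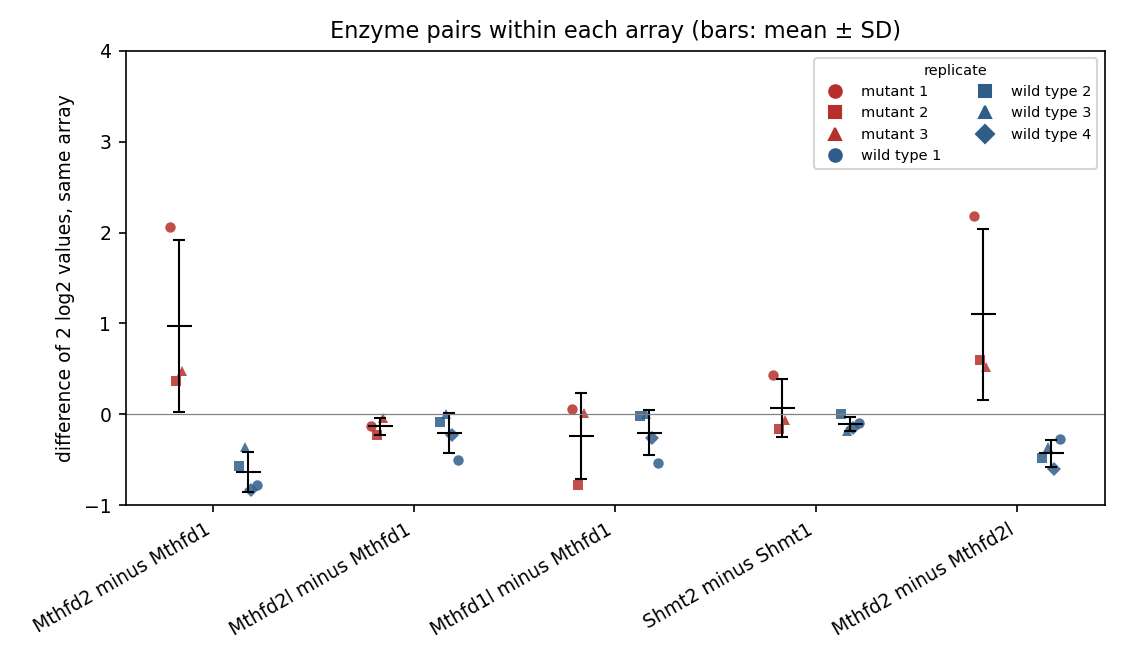
Difference between the log2 values of 2 enzymes in the same array (vertical axis), for 5 pairs (horizontal axis), with mutant arrays in red, wild-type arrays in blue and bars for the mean ± SD. The groups are separate in the pairs Mthfd2 minus Mthfd1 and Mthfd2 minus Mthfd2l, where all wild-type points lie below 0 and all mutant points above it, and overlap in the other 3.

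All genes were also ranked for how closely they followed Mthfd2, by the root mean square difference of the 7 log2 values. Among the 18193 genes tested, the closest was Fgf21, the stress hormone in the series title, at 0.277 on the log2 scale. It measured 2.03, 0.93 and 0.83 in mutant and -0.43, -0.40, 0.00 and -0.05 in wild-type arrays. Psat1 was the 5th closest, at 0.485. The others of the 8 closest were Egr1, an immediate early transcription factor, at 0.334, and Slc7a5, a transporter of large neutral amino acids, at 0.450. They were followed by Crym at 0.478, Car4, a carbonic anhydrase, at 0.533, Trib3, a pseudokinase of the stress response, at 0.540, and Tnfaip6 at 0.572. In all 8 genes mutant replicate 1 was the highest array, as it was for Mthfd2. This measure favours genes with a spread as large as that of Mthfd2, and the 7 arrays that set it are the ones compared above.

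**Figure D4:**
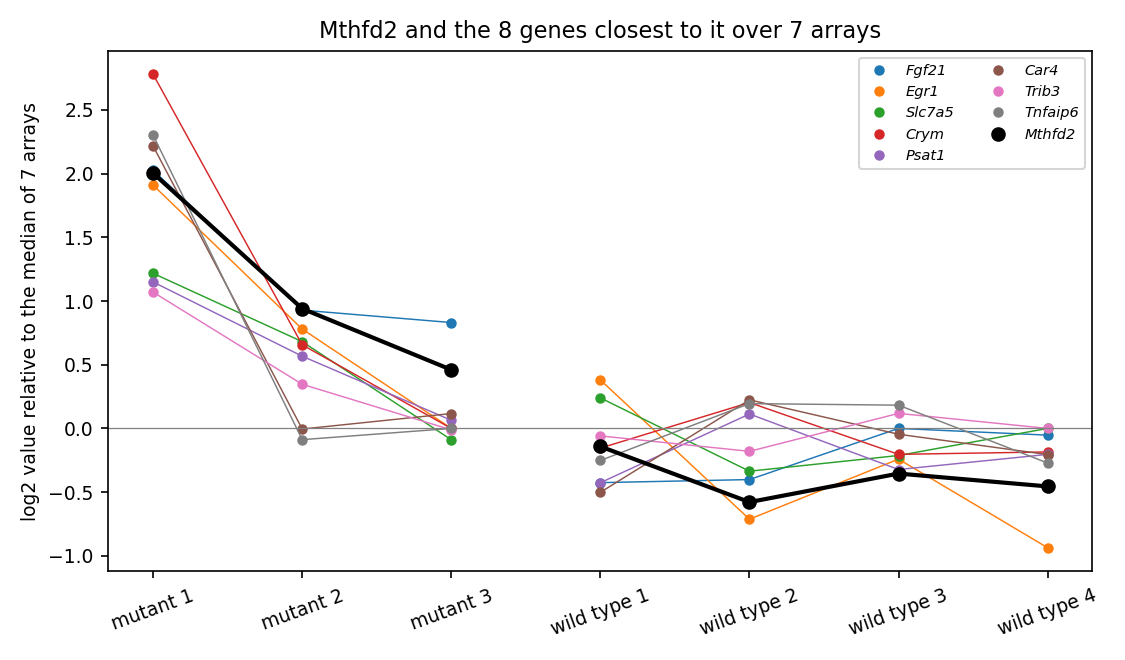
Log2 values (vertical axis) for Mthfd2 (black) and the 8 genes closest to it (colours), by array (horizontal axis). Each probe set was set against its own median over 7 arrays before averaging by gene. Thin lines only join the points of a gene within a group. Mutant replicate 1 is the highest array for all 9 genes, and Fgf21 follows Mthfd2 most closely, at a root mean square difference of 0.277, so that its points for mutant replicates 1 and 2 lie under those of Mthfd2.

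Of 6 stress genes set beside the enzymes, Asns, the asparagine synthetase, differed by 0.70 ± 0.43 (SE) and Trib3 by 0.50 ± 0.24. Chac1 differed by 0.41 ± 0.45, Ddit3 (CHOP) by 0.27 ± 0.31 and Atf4 by 0.10 ± 0.26. All 6, Fgf21 included, had positive differences, against 46.5% of all genes. At an unadjusted limma p under 0.05 there was 1 (Fgf21), against 0.742% of all genes higher, and 0 at an adjusted p.

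The neighbouring steps of the pathway were read from 7 lists with 47 genes, of which 41 were measured here. With limma, 0 of the 41 had an adjusted p under 0.05, and 0 an unadjusted one. The differences were positive for 19 and negative for 22, with a median of -0.02, and positive for 46.5% of all genes. Among all genes 1.43% had an unadjusted p under 0.05 in either direction.

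In purine synthesis, which draws on formate, 4 of 6 enzymes were positive, with a median difference of 0.13. Atic, which adds the second formyl group to the purine ring, differed by 0.21 ± 0.09 (SE; limma, adjusted p = 1.00). It was the 1 gene of the 41 whose mutant arrays (0.04, 0.20 and 0.27) all lay above the wild-type arrays, at most 0.037, against 0.879% of all genes. Paics differed by -0.12 ± 0.09. Of 7 other folate enzymes 5 were positive, with a median of 0.06. Mtr, the methionine synthase, differed by 0.21 ± 0.13 and Mtfmt, which formylates the mitochondrial initiator tRNA, by 0.07 ± 0.11.

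The glycine cleavage system, the other mitochondrial source of one-carbon units, had 0 of 3 positive, with a median of -0.10. Gldc, its decarboxylase, differed by -0.18 ± 0.11 and Gcsh, its carrier protein, by -0.10 ± 0.20. The enzymes that derive one-carbon units from choline had 0 of 4 positive and a median of -0.10, with Chdh at -0.32 ± 0.37 and Pipox at -0.12 ± 0.15. Of 7 folate transport and polyglutamylation genes 2 were positive, with a median of -0.08. Fpgs, the polyglutamate synthase, differed by -0.23 ± 0.13 and Slc46a1, the proton-coupled folate transporter, by -0.15 ± 0.14.

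Among 9 genes that transport or use serine and glycine, 5 were positive and the median was 0.02. Slc1a5, a neutral amino acid transporter, differed by -0.27 ± 0.24 and Sfxn1, the mitochondrial serine carrier, by -0.50 ± 0.50. Both were highest in wild-type replicate 3, at 0.92 and 1.65, the array with the low Gapdh 5 prime minus 3 prime value. That array also had the highest mean of the adipocyte (1.32), leukocyte (0.72) and fibroblast markers (0.88). Its muscle fibre mean was the lowest of the arrays, at -0.67. A link of these to Slc1a5 and Sfxn1 was not tested. In the methionine cycle 3 of 5 were positive with a median of 0.04, with Ahcy at 0.13 ± 0.20 and Mat1a at -0.15 ± 0.17. 

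Marker lists of muscle fibres and other cell types were read beside Mthfd2, and their part in its difference was not tested. The 6 measured proliferation markers were all higher in mutant muscle, against 46.5% of all genes. Their median difference was 0.11, with list means of -0.10 to 0.23 in mutant and -0.19 to 0.05 in wild-type arrays. Mki67, the first of them by p, differed by 0.27 ± 0.18 (SE) and lay in the dimmest range, as did Top2a and Cdk1. The 5 endothelial markers were also all higher, against the same 46.5%, with a median of 0.25 and means of -0.08 to 0.26 against -0.44 to 0.10. Of 5 satellite cell markers 3 were higher, with a median of 0.00056 and means of 0.04 to 0.13 against -0.15 to 0.05. Sdc4 differed by 0.52 ± 0.10 (SE) and was the 1 of them at an unadjusted limma p under 0.05, against 0.742% of all genes higher. Its mutant arrays all lay above its wild-type arrays, against 0.879% of all genes. In Pax7, Myf5, Cdh15 and Vcam1 the groups overlapped. Leukocyte means ran from -0.15 to 0.30 in mutant and -0.37 to 0.72 in wild-type arrays, fibroblast means from -0.04 to 0.17 and -0.29 to 0.88, adipocyte means from -0.44 to 0.18 and -1.17 to 1.32, nerve means from -0.12 to 0.11 and -0.36 to 0.38, and erythroid means from -0.36 to 0.56 and -0.40 to 0.75. The muscle fibre mean was -0.67 in wild-type replicate 3 and between -0.11 and 0.15 in all other arrays. The slow fibre mean was -4.18 and -2.51 in wild-type replicates 1 and 2 and between -0.11 and 0.74 in the other 5 arrays. The cerebellum markers averaged -0.11 to 0.03 in mutant and 0.01 to 0.14 in wild-type arrays.

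**Figure D5:**
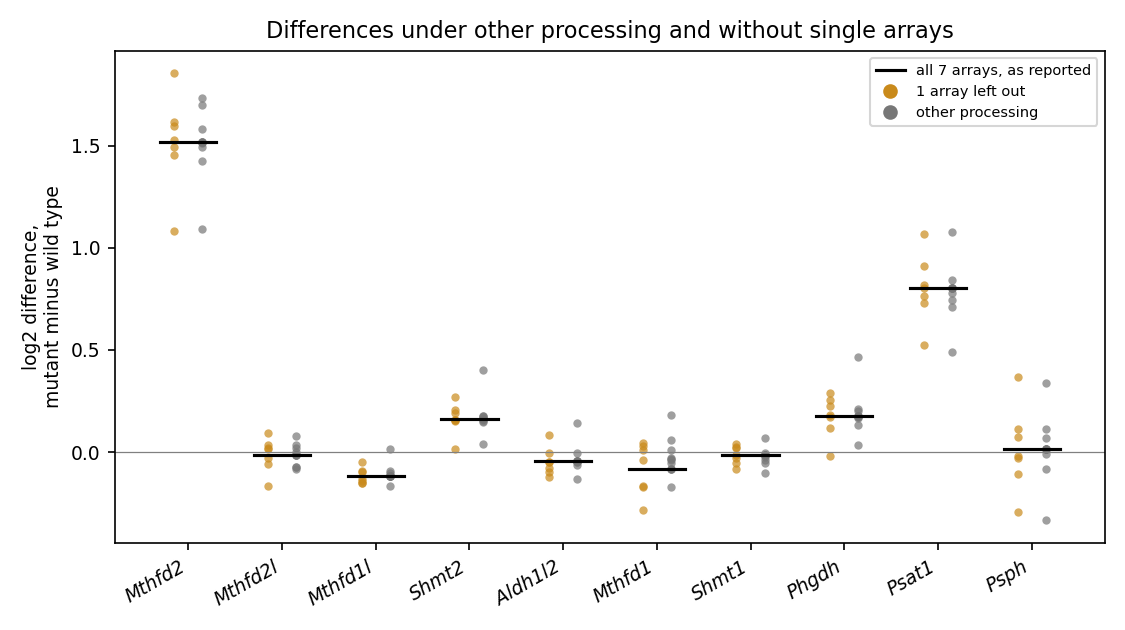
Log2 difference, mutant minus wild type (vertical axis), of each enzyme (horizontal axis) with all 7 arrays (black line), with 1 array left out (orange) and under other processing or sets of arrays (grey). Mthfd2 stays between 1.08 and 1.85 and Psat1 between 0.49 and 1.08, and the points of 7 of the other 8 enzymes fall on both sides of 0; those of Shmt2 stay above it.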

How the data were processed

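Quadriceps RNA of 7 mice was labelled from 5 ug of total RNA and hybridised to single-colour arrays, per the labels' protocols. The authors deposited log2 values for 45101 probe sets, each relative to its median over 7 arrays, which is read from the values, as the median was exactly 0 in all 45101. GCOS 4.0 is named in the submitters' processing notes. No source used here says how probes were summarised, scaled or centred.

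Level ranges came from the number spacing, taking the most probable range of the median array: 5303 probe sets lay between 8 and 16, 18598 between 4 and 8, 21181 between 2 and 4, and 19 stayed unresolved. Symbols were updated by Entrez identifier (34754 of 34958 matched) with the RefSeq table of GRCm38.p6. A gene's value is the mean of its probe sets in its highest range. Genes were fitted with limma 3.58.1 in R 4.3.3 (lmFit, eBayes), 3 against 4 arrays, no covariate, two-sided, at an adjusted threshold of 0.05. The fit was tested on simulated data, with independent normal values and equal spread in both groups. Real arrays resembled each other in part and spread unequally, so the simulation checks only the code. Arrays give no read depth, so their number limits the precision. The labels call the samples biological replicates.

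Members, lists and tests were chosen with earlier results of these data known. Named were all members, the 2 smallest p-values per pathway list, 6 stress genes and the 8 genes closest to Mthfd2. In all 18 alternatives were run.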

Additional observations from a re-analysis of the deposited data

How the results depend on the processing

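No gene passed the adjusted threshold under any of the 18 alternatives, 3 of which were chosen after seeing the data. Genes at an unadjusted limma p under 0.05 numbered 261, or 1.43% of all genes, where 5% would be expected if no gene differed. None of the counts below passed that share, so a higher count is not read as more difference. They numbered 907 with mutant replicate 2 and wild-type replicates 1 and 4 as a block, 607 without these 3 arrays, 461 without mutant replicate 1 and wild-type replicate 3 together, 144 without the dimmest genes and 180 to 582 with 1 array left out. Mthfd2 (1.08 to 1.85), Psat1 (0.49 to 1.08) and Shmt2 (0.015 to 0.40) kept their direction in all 18; the other 7 members did not.

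Quantile normalization turned Psph to -0.083 and Mthfd1l minus Mthfd1 to 0.070. The mean over all probe sets gave 0.061 for Mthfd1, 0.023 for the cytosolic mean and -0.073 for Mthfd2l minus Mthfd1. The probe set with the largest spread gave 0.18 for Mthfd1, 0.065 for the cytosolic mean, -0.27 for Mthfd2l minus Mthfd1, 0.52 for the serine synthesis mean and 2 members with no overlap. Age as a covariate gave -0.012 for Psph. The 3 arrays as a block gave 0.037 for Mthfd2l, 0.0085 for Mthfd1 and 0.0024 for the cytosolic mean. Leaving them out gave 0.016 for Mthfd1l, 0.14 for Aldh1l2, -0.33 for Psph, 0.19 for the serine synthesis mean, 1.73 for Mthfd2 minus Mthfd1, -0.043 for Mthfd2l minus Mthfd1, 0.047 for Mthfd1l minus Mthfd1, 1.77 for Mthfd2 minus Mthfd2l and 3 members with no overlap. Without mutant replicate 1 and wild-type replicate 3 Mthfd2l was 0.081, Shmt1 0.071, the mitochondrial mean 0.18, the cytosolic mean 0.0080, mitochondrial minus cytosolic 0.17, Mthfd2 minus Mthfd1 1.15, Shmt2 minus Shmt1 -0.030 and Mthfd2 minus Mthfd2l 1.01. Neither Mthfd2 pair passed after adjustment with all 7 arrays, where passing would have needed another pair at the smallest p. With fewer arrays the permutation test cannot reach 0.05 even unadjusted. The cause of the other changes was not tested. With fewer arrays any gene separates the groups more easily, and the share of all genes with no overlap was not taken under these settings. The counts of 2 and 3 members with no overlap thus cannot be set against the shares given for the main result.

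With 1 array left out the ranges were -0.17 to 0.095 for Mthfd2l, -0.12 to 0.085 for Aldh1l2, -0.29 to 0.044 for Mthfd1, -0.085 to 0.038 for Shmt1, -0.019 to 0.29 for Phgdh and -0.29 to 0.37 for Psph. For the pairs they were 1.05 to 1.90 for Mthfd2 minus Mthfd1, 0.99 to 1.82 for Mthfd2 minus Mthfd2l, -0.0039 to 0.29 for Shmt2 minus Shmt1, -0.029 to 0.14 for Mthfd2l minus Mthfd1 and -0.18 to 0.24 for Mthfd1l minus Mthfd1. For the means they were 0.19 to 0.38 (mitochondrial), -0.19 to 0.023 (cytosolic), 0.17 to 0.52 (mitochondrial minus cytosolic) and 0.25 to 0.43 (serine synthesis). The count of members with no overlap was 1 to 2, with no share over all genes taken for these sets of arrays.

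Whether the replicate numbers pair the samples was left undecided. Same-numbered mutant and wild-type arrays had deviations that correlated at -0.50, -0.32 and 0.14, and no mutant array correlated best with its own number. These correlations also carry the likeness of the arrays that resembled each other across replicate numbers, so low values cannot exclude pairing. Same-numbered mice had equal ages for replicate 2 (24 months) and replicate 3 (21 months). For replicate 1 the mutant mouse was aged 24 months and the wild-type mouse 26. With the replicate block 96 genes had an unadjusted p under 0.05, Mthfd2 was 1.49, Psat1 0.81 and Mthfd2l 0.022.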
